A study of Mus musculus with 6 samples.

Results

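The cyclic nucleotide signalling genes measured here were 53 genes with 224 regions of open chromatin, out of 12574 genes and 58172 regions in the whole table. A gene entered by its symbol, when it named a phosphodiesterase, an adenylyl or guanylyl cyclase, a cAMP- or cGMP-dependent protein kinase subunit, an A-kinase anchoring protein, an exchange factor of the Rapgef family, or a member of the CREB and CREM family. Accessible DNA was measured by ATAC-seq, which tags open chromatin by inserting adapters with a transposase, on lung endothelial cells of mice. There were 3 CSE-KO libraries, all Cre-positive, and 3 WT libraries, all Cre-negative. CSE is cystathionine gamma-lyase, which makes cysteine and hydrogen sulphide and is encoded by Cth. The sources used here do not give the allele, the Cre driver, or the age, sex and strain of the mice. Cre and the loss of the enzyme cannot be told apart in this design, because no Cre-positive library kept the enzyme. The labels do not say that the libraries of a group came from separate animals, so the tests measure the spread between these libraries, which may be technical.

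Adenylyl and guanylyl cyclases make cAMP and cGMP, and phosphodiesterases break both down. cAMP acts through protein kinase A, which anchoring proteins hold at particular sites, through the EPAC exchange factors for Rap proteins, and, in the nucleus, through CREB-family transcription factors. cGMP, made downstream of nitric oxide and natriuretic peptides, acts through cGMP-dependent kinases. In endothelium, cAMP and EPAC are known for tightening the junctions between cells and cGMP for relaying nitric oxide signals.

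Each value below is a size-factor-normalised read count of a region in a library, as deposited and rounded, and regions are placed on mm10. A region counted as promoter when its centre lay within 1 kb of the start site and as distal otherwise. The deposited table itself gave the gene of 67 of the 224 regions. The other 157 took the nearest start site within 100 kb among the protein-coding genes that the deposited table names. A gene absent from the table could lie closer. A distance is given with each region and does not show that the region acts on that gene. Values summed to 5437296, 5547417 and 5536256 in CSE-KO replicates 1 to 3, against 5368491, 5264443 and 5242490 in WT replicates 1 to 3. The spacing of low values put the CSE-KO libraries at about 3340000, 3630000 and 3400000 reads in regions, whereas the WT columns showed no gaps between whole numbers up to 100 and so rested on about their totals or more. The mean residual SD of the 224 regions was 0.447 in CSE-KO and 0.312 in WT on the log2 scale, against 0.481 and 0.306 over all regions. Of 14 endothelial markers 12 had a region, with Pecam1 and Vwf unmatched, and their summed values were 6312 to 6775 in CSE-KO, against 7838 to 8193 in WT. Regions of 5 of 12 leukocyte markers summed to 456 to 488 in CSE-KO, against 552 to 613 in WT. The 7 of 12 lung epithelial markers with a region summed to 2054 to 2214 in CSE-KO, against 2315 to 2468 in WT, and the 9 of 14 mural and fibroblast markers to 1248 to 1344 in CSE-KO, against 1335 to 1402 in WT. These shifts in marker regions run beside every result below, and their part in it was not tested. Fewer cells of a type and less accessible DNA per cell cannot be told apart in bulk chromatin.

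All 224 regions passed the minimum mean value of 5. In limma on log2(value + 1), with Benjamini-Hochberg adjustment over all 58129 tested regions, 14 of them were higher and 19 lower in CSE-KO at an adjusted p of 0.05, which is 14.7% of the regions. Over all regions 17.3% were called, 7.7% higher and 9.6% lower, and over regions with a gene 15.5%. The share called was near both. The values of the 3 CSE-KO and the 3 WT libraries did not overlap in 77 of the 224 regions, against 39.5% of all regions. All 14 higher and all 19 lower regions were among the 77, so a lack of overlap at a called region is no separate support. Of the called regions, 9 were over 2-fold higher and 15 over 2-fold lower. Leaving out CSE-KO replicate 2 reduced the 14 higher regions to 9, and leaving out WT replicate 1, 2 or 3 reduced them to 7, 5 and 7. The 19 lower regions became 11 without any single WT library.

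Most promoters of the set were not called. Of 50 promoter regions, at 46 genes, 2 were higher in CSE-KO (4%) and 0 lower, where 8.52% of all promoter regions were called, 5.23% higher and 3.29% lower. At an unadjusted p under 0.05, 8 of the 50 were higher and 4 lower. Of 174 distal regions 12 were higher and 19 lower (17.8%), where 19.9% of all distal regions were called, 8.43% higher and 11.5% lower. Among distal regions with a gene 18.8% were called. The median log2 difference was 0.13 over the promoter regions and 0.11 over all promoters, and −0.06 over the distal regions and over all distal regions alike. In summed values, the promoter regions held 8809 to 9267 in CSE-KO and 8353 to 8755 in WT, and the distal regions 10267 to 10770 in CSE-KO and 11321 to 11485 in WT. The groups overlapped in neither sum. By gene, 7 had only higher calls, 7 only lower, 4 had calls in both directions and 35 had none (66%). Over all 12574 genes 13.5% had only higher calls, 15% only lower, 4.4% both and 67.2% none, so the counts by gene were near the background.

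**Figure D1:**
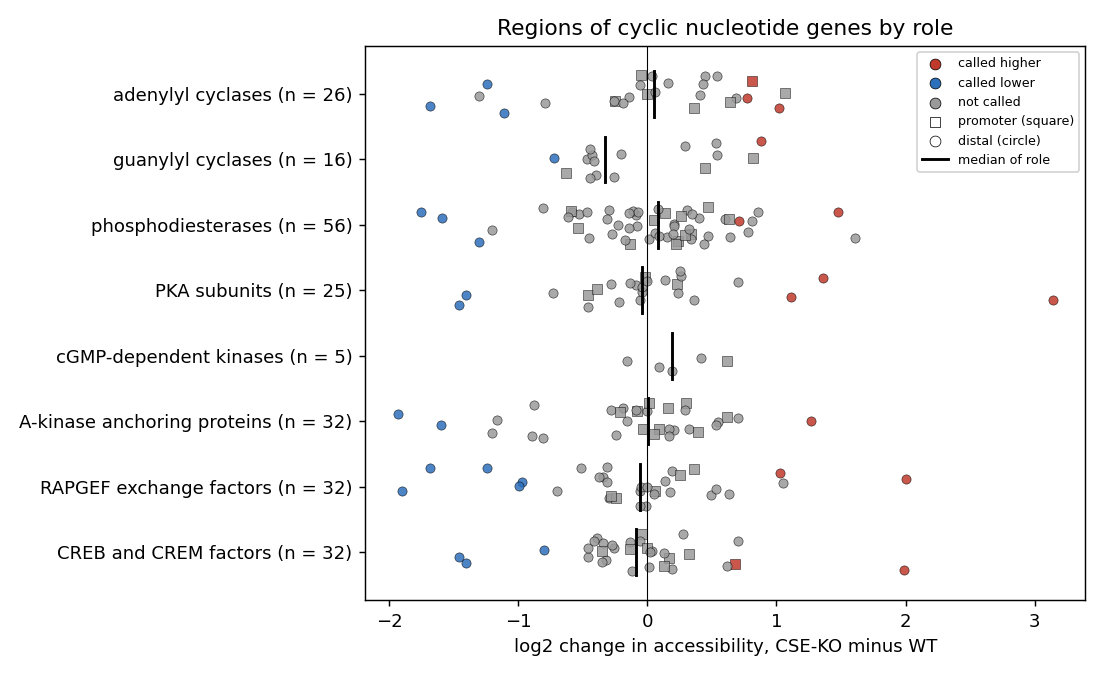
Log2 difference in accessibility, CSE-KO minus WT, along the horizontal axis for each of the 224 regions, with the 8 roles down the page. Red points were called higher and blue points lower by limma, grey points were not called, squares are promoters, circles are distal regions and black bars are the medians of each role. Calls in both directions appear in every role except the cGMP-dependent kinases, which had none, and the point farthest right is the Prkar2a region at 3.14.

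Among the adenylyl cyclases, the enzymes that make cAMP from ATP, 26 regions of 7 genes held 3 higher and 3 lower calls. This is 23.1% called, against 17.3% of all regions, and the median log2 difference was 0.05. Adcy7, which encodes an isoform stimulated by G proteins and found in blood and endothelial cells, was lower at both of its called regions. The region chr8:88282773-88283606, 10.8 kb downstream of the start site, held 69, 75 and 102 in CSE-KO, against 203, 196 and 180 in WT, a log2 difference of −1.24 ± 0.20 (SE; adjusted p = 0.00942). The region chr8:88297936-88298541, 25.8 kb downstream inside the gene, held 119, 109 and 103 in CSE-KO, against 261, 227 and 229 in WT (−1.11 ± 0.16; adjusted p = 0.00754). Every CSE-KO library lay below every WT library in both regions, by 2.37-fold and 2.16-fold on average, and both calls stood in every alternative setting that kept these regions. The Adcy7 promoter held 44, 60 and 89 in CSE-KO, against 21, 41 and 28 in WT (1.07 ± 0.33; adjusted p = 0.0656). There every CSE-KO library lay above every WT library, but the difference missed the threshold. It passed in 4 alternative settings. These were without CSE-KO replicate 1 (adjusted p = 0.0469), with 5 in place of 1 added to each value (0.0453), with a minimum mean of 20 (0.0393) and with the trend and robust options of limma on (0.00994).

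The 10.8 kb region overlaps an alternative start window of Adcy7 in RefSeq, from 250 bases before to 50 after the start (GRCm38.p6, chr8:88282742-88283041, plus strand). It is shown because the region that was lower lies over an annotated start of the gene, and capitals mark CGTCA, the short cAMP response core TGACG read on the other strand.
Adcy7: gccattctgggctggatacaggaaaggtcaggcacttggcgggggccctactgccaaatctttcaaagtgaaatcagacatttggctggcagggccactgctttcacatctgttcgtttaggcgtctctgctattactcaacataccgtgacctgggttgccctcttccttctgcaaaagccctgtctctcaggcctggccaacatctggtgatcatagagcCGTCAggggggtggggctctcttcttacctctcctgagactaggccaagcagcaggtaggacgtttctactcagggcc
The core begins at base 223 of the window.

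Adcy6, an isoform that calcium inhibits, had 1 of the 2 called promoter regions. That region counted as promoter by the deposited start site and overlaps no RefSeq start window. The region chr15:98608881-98609673, centred 0.799 kb from the start, held 140, 97 and 102 in CSE-KO, against 73, 51 and 67 in WT. All 3 CSE-KO values were above the WT values, with a log2 difference of 0.81 ± 0.22 (adjusted p = 0.0466). This call was lost without any single library, with adjusted p = 0.0898, 0.0571 and 0.0678 without CSE-KO replicates 1 to 3 and 0.0893, 0.147 and 0.114 without WT replicates 1 to 3. Library quality weights in limma (0.052) and replicate number as a covariate (0.0566) ended it too. Adcy9, a widely expressed isoform that forskolin activates poorly, had 10 regions, with a median log2 difference of −0.01 and calls in both directions. Its region chr16:4444509-4444922, 24.2 kb upstream, held 41, 77 and 56 in CSE-KO, against 28, 29 and 25 in WT (1.02 ± 0.25; adjusted p = 0.033). The groups did not overlap. Without CSE-KO replicate 2 or 3 the adjusted p was 0.054 and 0.0653, and without WT replicate 1, 2 or 3 it was 0.0975, 0.0907 and 0.111. With replicate number as a covariate it was 0.0551. The Adcy9 promoter overlapped between groups, at 237, 259 and 215 in CSE-KO and 250, 207 and 285 in WT (−0.05 ± 0.19; adjusted p = 0.868). A further Adcy9 region 57.5 kb upstream, inside Srl, was higher by a log2 difference of 0.77 (adjusted p = 0.0414), and a region 79.6 kb downstream was lower by −1.68 (adjusted p = 0.0499). Both calls ended without any single WT library, and also without CSE-KO replicate 3. The first also ended without CSE-KO replicate 1 and the other without CSE-KO replicate 2, with adjusted p between 0.0772 and 0.138 over all these settings. Replicate number as a covariate ended both (0.0772 and 0.0576). The call at 79.6 kb also ended with 0.5 added to each value (0.0543) and with no filter on low values (0.0502).

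The guanylyl cyclases, which make cGMP, had 16 regions in 5 genes with 1 higher and 1 lower call (12.5% called, against 17.3% of all regions). Their median log2 difference was −0.33. Their summed values were 983 to 1110 in CSE-KO, against 1292 to 1361 in WT, and did not overlap, but without Gucy2g they were 356 to 370 in CSE-KO, against 342 to 394 in WT, and overlapped. The summed values of adenylyl cyclases, phosphodiesterases, protein kinase A subunits, anchoring proteins, exchange factors and CREB-family factors overlapped between the groups as well. Gucy2g, a membrane guanylyl cyclase of the mouse, supplied the lower region, chr19:55244680-55245438, 3.82 kb upstream of its start. It held 270, 230 and 285 in CSE-KO, against 449, 434 and 411 in WT (−0.72 ± 0.16; adjusted p = 0.027). The groups did not overlap, and the call was lost without CSE-KO replicate 2 (adjusted p = 0.0545) and without WT replicate 1, 2 or 3 (0.0974, 0.0936 and 0.0827). Replicate number as a covariate also ended it (0.0714). Gucy1b2, a beta subunit of soluble guanylyl cyclase, was higher at chr14:62493737-62493947, 37.6 kb upstream, with 41, 40 and 34 in CSE-KO, against 23, 18 and 20 in WT (0.88 ± 0.17; adjusted p = 0.0177). Again no CSE-KO value fell within the WT range, while the adjusted p was 0.0742 without WT replicate 2 and 0.0703 without WT replicate 3. Neither gene had a promoter region. The promoter of Gucy1b1, which encodes the common beta subunit of the nitric oxide receptor, averaged 25.3 ± 6.43 in CSE-KO and 39.0 ± 4.58 in WT (SD, n = 3 each), with adjusted p = 0.104 in limma. It was named after its values were seen.

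The phosphodiesterase symbols covered 56 regions in 11 genes, with 2 higher and 3 lower calls (8.93% called, against 17.3% of all regions). Their median log2 difference was 0.08. Cyclic AMP-specific enzymes (5 genes, 33 regions) had 1 higher and 2 lower calls (9.09%). Enzymes that take both nucleotides (3 genes, 15 regions) had 1 call in each direction (13.3%). The cGMP class (2 genes, 5 regions) had 0 calls in limma and 1 higher and 1 lower at an unadjusted p under 0.05. It includes Pde6d, which is known as a carrier of prenylated proteins and not as an enzyme. Pde4dip, taken by its symbol, encodes a scaffold protein and belongs to none of these classes.

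Pde1b, a calmodulin-activated enzyme that hydrolyses both nucleotides, had 1 higher and 1 lower region on the 2 sides of its start. The region chr15:103476797-103477463, 25.9 kb upstream and inside Nckap1l, a gene of blood cells, held 150, 161 and 130 in CSE-KO, against 58, 50 and 48 in WT (1.48 ± 0.17; adjusted p = 0.00444). The region chr15:103531728-103532235, 28.9 kb downstream and inside Ppp1r1a, held 39, 26 and 34 in CSE-KO, against 97, 104 and 100 in WT (−1.59 ± 0.19; adjusted p = 0.00482). The groups were far apart in both, 2.79-fold higher and 3.02-fold lower, and both calls stood in every alternative setting that kept these regions. The Pde1b promoter between them overlapped, with 88, 70 and 51 in CSE-KO and 68, 63 and 55 in WT (0.14 ± 0.23; adjusted p = 0.717).

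Pde8a, a cAMP-specific enzyme of high affinity, had 14 regions, 2 of them called lower, over a log2 range of −1.75 to 1.61 with a median of −0.16. The region chr7:81131836-81132337, 81.5 kb upstream and inside Slc28a1, held 34, 44 and 66 in CSE-KO, against 149, 149 and 178 in WT (−1.75 ± 0.26; adjusted p = 0.00789). Every CSE-KO value was well below every WT value. The other called region lay 39.8 kb downstream inside the gene, with a log2 difference of −1.30 ± 0.23 (adjusted p = 0.0122), and missed the threshold without WT replicate 1 (0.0527) or WT replicate 3 (0.0529). The Pde8a promoter held 488, 460 and 554 in CSE-KO, against 490, 481 and 480 in WT (0.05 ± 0.16; adjusted p = 0.867), so its groups overlapped. Pde7a, another cAMP-specific enzyme, was higher at chr3:19367790-19368145, 56.6 kb upstream, with 42, 43 and 49 in CSE-KO, against 31, 26 and 24 in WT (0.71 ± 0.17; adjusted p = 0.0337). The values did not overlap, and the call ended without CSE-KO replicate 2 (0.0569) or 3 (0.0704) and without WT replicate 1, 2 or 3 (0.0656, 0.113 and 0.121). Trend and robust on (0.0579) and replicate number as a covariate (0.0851) ended it too. The Pde7a promoter held 247, 349 and 371 in CSE-KO and 276, 247 and 295 in WT (0.22 ± 0.21; adjusted p = 0.488).

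Protein kinase A subunits had 25 regions in 5 genes, with 3 higher and 2 lower calls (20% called, against 17.3% of all regions). The median log2 difference was −0.04. All calls lay at regulatory subunits, which hold the catalytic subunits inactive until cAMP binds. Most regions did as well, with 6 at Prkar1a, 5 at Prkar2a and 8 at Prkar2b. The catalytic genes had fewer, with 1 at Prkaca and 5 at Prkacb. Prkar2a, the type II alpha regulatory subunit, had the largest positive difference among the 224 regions. Its region chr9:108701090-108701317, 11.9 kb downstream inside the gene, held 59, 31 and 31 in CSE-KO, against 2, 5 and 4 in WT (3.14 ± 0.35; adjusted p = 0.00413). This was near closed in WT and 8.81-fold higher in CSE-KO. With 1 added to each value before the log, such folds come out too small where values are low. No region of the gene lay within 1 kb of its assigned start. The region 3.1 kb downstream, which overlaps a RefSeq start of Prkar2a, held 341, 362 and 317 in CSE-KO and 288, 310 and 327 in WT, with overlapping groups (adjusted p = 0.568).

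Prkar1a, the type I alpha regulatory subunit, was higher at chr11:109635923-109636138, 13.4 kb upstream, with 46, 43 and 39 in CSE-KO, against 16, 21 and 12 in WT (1.36 ± 0.23; adjusted p = 0.0105). The groups did not overlap there. A region 32.3 kb downstream, inside Fam20a, was also higher, by a log2 difference of 1.11 ± 0.27 (adjusted p = 0.0335), until CSE-KO replicate 1 or 2 (0.0726 and 0.0774) or WT replicate 1 or 2 (0.113 and 0.109) was left out. That call also ended with trend and robust on (0.0771), with library quality weights (0.055) and with replicate number as a covariate (0.0774). The Prkar1a promoter held 114, 104 and 118 in CSE-KO, against 137, 155 and 149 in WT (−0.39 ± 0.16; adjusted p = 0.129), on the other side of 0 and short of the threshold. Prkar2b, the type II beta subunit, was lower at chr12:32110759-32111250, 49.7 kb upstream, with 23, 25 and 34 in CSE-KO, against 67, 68 and 95 in WT (−1.46 ± 0.23; adjusted p = 0.00906). That region overlaps the start of the predicted gene Gm51991. A region 27.6 kb upstream was lower by −1.40 ± 0.27 (adjusted p = 0.0166), and the adjusted p was 0.0674 without WT replicate 1 and 0.0657 without WT replicate 2. The Prkar2b promoter overlapped between groups, with 173, 225 and 205 in CSE-KO and 193, 164 and 265 in WT (−0.02 ± 0.23; adjusted p = 0.954). Prkg1 was the only cGMP-dependent kinase gene with regions, and 0 of its 5 were called in limma, with 1 at an unadjusted p under 0.05. Its promoter, 0.555 kb from the start, held 131, 175 and 146 in CSE-KO, against 90, 108 and 93 in WT (0.62 ± 0.18; adjusted p = 0.0561), and the groups did not overlap. The threshold was passed in 4 alternative settings. These were a pseudocount of 5 (adjusted p = 0.0456), a minimum mean of 20 (0.036), trend and robust on (0.00973) and quantile normalization (0.0487). The next region of Prkg1 by p, 67.6 kb upstream, held 15, 25 and 28 in CSE-KO and 16, 12 and 22 in WT (adjusted p = 0.372). Over the 5 regions of Prkg1 the sums were 430 to 483 in CSE-KO and 391 to 410 in WT.

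**Figure D2:**
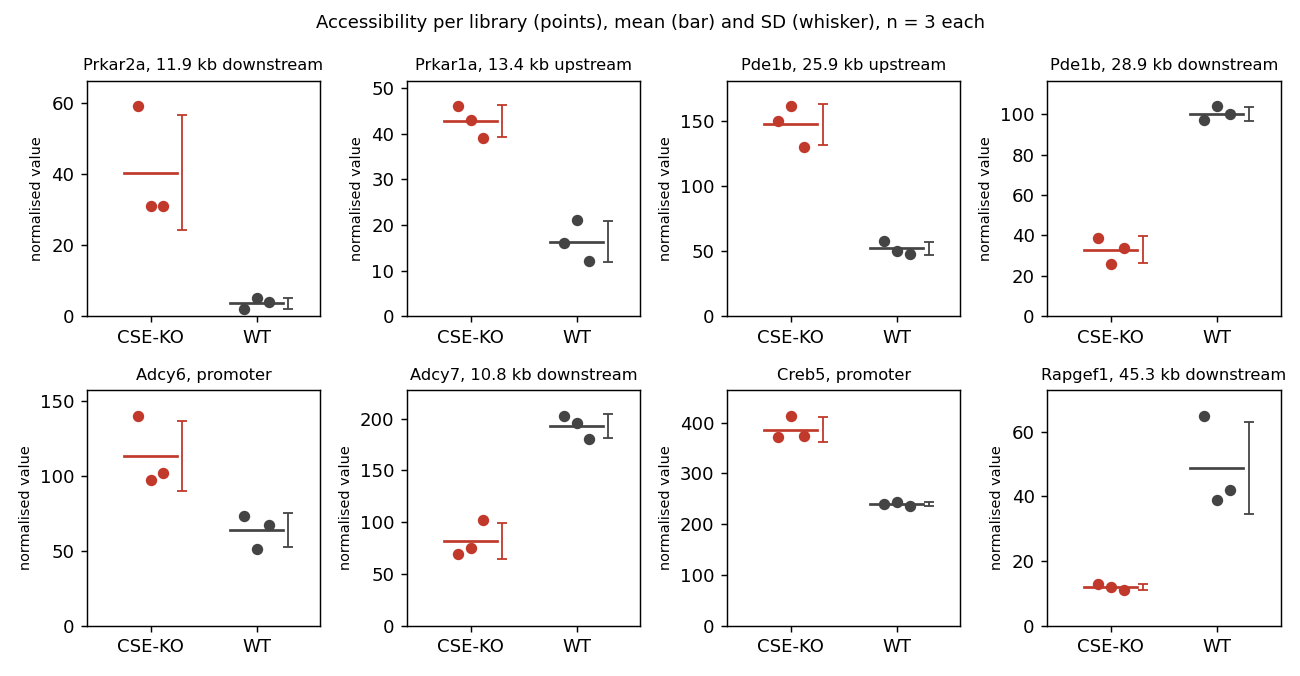
Normalised values of 8 named regions in each library, with the 3 CSE-KO libraries left of the 3 WT libraries in each panel, on vertical axes that start at 0. Bars mark group means and whiskers 1 SD, n = 3 each. The panels were chosen from called regions, none of which overlap between groups, so CSE-KO and WT values do not overlap in any panel. The Prkar2a region held at most 5 in WT, against 31 or more in CSE-KO.

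The A-kinase anchoring proteins, which tether protein kinase A to membranes and organelles, had 32 regions in 12 genes with 1 higher and 2 lower calls. This is 9.38% called, against 17.3% of all regions, and the median log2 difference was 0.01. Akap13, a large anchoring protein, had 10 regions, with a median log2 difference of −0.06 and a call in each direction. The lower region, chr7:75525061-75525593, lay 69.8 kb downstream inside the gene and held 10, 20 and 13 in CSE-KO, against 64, 56 and 47 in WT (−1.93 ± 0.27; adjusted p = 0.00677). This was the largest negative log2 difference of the set. The higher region, chr7:75399239-75399415, 56.2 kb upstream, held 36, 28 and 39 in CSE-KO, against 11, 14 and 16 in WT (1.27 ± 0.21; adjusted p = 0.0106). The Akap13 promoter held 296, 391 and 276 in CSE-KO and 310, 343 and 318 in WT (−0.03 ± 0.19; adjusted p = 0.936), with overlapping groups. Akap4, known as a sperm protein, had 3 regions. The region nearest its start, 1.05 kb upstream, had a log2 difference of −0.19 (adjusted p = 0.735). The called region was the farthest, 98.7 kb upstream at chrX:6968644-6968933. It held 11, 5 and 13 in CSE-KO, against 33, 31 and 25 in WT (−1.60 ± 0.33; adjusted p = 0.0199). The groups did not overlap, but without WT replicate 1, 2 or 3 the adjusted p was 0.076, 0.0721 and 0.057.

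The Rapgef exchange factors, which load Rap proteins with GTP, had 32 regions in 4 genes with 2 higher and 5 lower calls. This is 21.9% called, against 17.3% of all regions, and the median log2 difference was −0.06. Rapgef1, which is recruited by Crk adaptors and does not bind cAMP, held 18 regions, more than any other gene of the set, and 5 of the 7 calls, over a log2 range of −1.9 to 2 with a median of −0.06. Its lowest region, chr2:29664881-29665172, 45.3 kb downstream inside the gene, held 13, 12 and 11 in CSE-KO, against 65, 39 and 42 in WT (−1.90 ± 0.23; adjusted p = 0.00475). Every CSE-KO value was far under the WT values. The lower regions 31.5 kb upstream, 19.8 kb downstream and 9.83 kb downstream had log2 differences of −1.68, −0.97 and −0.99 (adjusted p = 0.008, 0.00969 and 0.0257). A region 77.5 kb upstream was higher by 2.00, or 4.00-fold, at 65, 34 and 51 in CSE-KO, against 8, 18 and 10 in WT (adjusted p = 0.0118). The call at 77.5 kb ended without WT replicate 3 (0.0523), and that at 9.83 kb without CSE-KO replicate 1 or 2 (0.057 and 0.0573) or WT replicate 2 or 3 (0.081 and 0.0863). Trend and robust on also ended the call at 9.83 kb (0.0521). At the promoter region nearest the Rapgef1 start the values overlapped, at a log2 difference of 0.06 ± 0.25 (adjusted p = 0.897).

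Rapgef6, which activates Rap proteins, was higher at chr11:54492060-54492785, 30.4 kb upstream and inside Fnip1, with 185, 135 and 159 in CSE-KO, against 64, 80 and 89 in WT (1.03 ± 0.20; adjusted p = 0.0177). The groups did not overlap, and the adjusted p was 0.0684 without WT replicate 1 and 0.0631 without WT replicate 2. With replicate number as a covariate it was 0.0524. Its promoter held 341, 354 and 325 in CSE-KO, against 317, 303 and 240 in WT (0.25 ± 0.18; adjusted p = 0.345). Rapgef2 was lower at chr3:79262040-79262292, 24.4 kb downstream inside the gene, with 18, 14 and 7 in CSE-KO, against 33, 25 and 33 in WT (−1.24 ± 0.33; adjusted p = 0.0425). No values overlapped, and the adjusted p was 0.068 without CSE-KO replicate 2 and 0.13, 0.088 and 0.129 without WT replicates 1 to 3. With replicate number as a covariate it was 0.0649. The Rapgef2 promoter held 379, 567 and 609 in CSE-KO and 572, 556 and 675 in WT (−0.24 ± 0.23; adjusted p = 0.497). The promoter of Rapgef3, which encodes the cAMP sensor EPAC1 of endothelial cells, held 279, 230 and 287 in CSE-KO, against 313, 327 and 326 in WT (−0.28 ± 0.16; adjusted p = 0.267). Rapgef3 was named after its values were seen.

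The CREB and CREM factors, which bind cAMP response elements or related sequences, had 32 regions in 8 genes with 2 higher and 3 lower calls. This is 15.6% called, against 17.3% of all regions, and the median log2 difference was −0.09. All 5 calls lay at Creb5 and Creb3l2, which held 4 and 15 of the 32 regions. Creb5, a CREB-family factor close to ATF2, was higher at its promoter and inside the gene. The promoter region chr6:53286523-53287746 held 371, 414 and 374 in CSE-KO, against 239, 244 and 236 in WT (0.68 ± 0.15; adjusted p = 0.025). The intragenic region chr6:53337390-53338001, 50.4 kb downstream, held 140, 97 and 95 in CSE-KO, against 15, 27 and 46 in WT (1.99 ± 0.39; adjusted p = 0.0172). The lowest CSE-KO value lay above the highest WT value in both, and the fold difference was 1.61 at the promoter and 3.98 inside the gene. The promoter call was lost without CSE-KO replicate 2 (0.0511) and without WT replicates 1 to 3 (0.0881, 0.0856 and 0.0924), and the intragenic call without WT replicate 2 (0.0621). Replicate number as a covariate also ended the promoter call (0.071).

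Creb3l2, a membrane-bound factor that acts in secretory cells, had 15 regions with a median log2 difference of −0.34, 3 of them lower. The region chr6:37435380-37435735, 6.59 kb downstream, held 52, 47 and 64 in CSE-KO, against 133, 156 and 142 in WT (−1.40 ± 0.18; adjusted p = 0.00585). CSE-KO values were far below the WT values there, 2.63-fold on average. The regions 10.6 kb and 66.5 kb downstream had log2 differences of −0.80 and −1.46 (adjusted p = 0.0258 and 0.0499). The 10.6 kb call was lost without CSE-KO replicate 1 or 2 (0.0537 and 0.0561), the 66.5 kb call without CSE-KO replicate 1 or 3 (0.0603 and 0.0528), and both without any single WT library (0.0775 to 0.15). Replicate number as a covariate also ended the 10.6 kb call (0.0687). A pseudocount of 0.5 (0.0546) or no filter on low values (0.0501) ended the 66.5 kb call. The Creb3l2 promoter overlapped, with 337, 352 and 249 in CSE-KO and 354, 342 and 267 in WT (−0.04 ± 0.21; adjusted p = 0.906). The promoters of Creb1 and Crem, the factors that protein kinase A is best known to phosphorylate, differed by 0.17 ± 0.15 and 0.13 ± 0.16 on the log2 scale (adjusted p = 0.474 and 0.60). Both were named after their values were seen.

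Outside the called regions, 191 regions had log2 differences from −1.3 to 1.61, and 44 of them (23%) did not overlap between groups, against 26.8% of all uncalled regions. The 35 genes with no called region were 4 adenylyl cyclases (Adcy3, Adcy4, Adcy5 and Adcy8), 3 guanylyl cyclases (Gucy1a2, Gucy1b1 and Gucy2e), 8 genes with phosphodiesterase symbols (Pde3b, Pde4a, Pde4b, Pde4dip, Pde5a, Pde6d, Pde7b and Pde10a) and the protein kinase A catalytic subunits Prkaca and Prkacb. They also included Prkg1, Rapgef3, 10 anchoring proteins (Akap1, Akap5, Akap8, Akap8l, Akap9, Akap10, Akap11, Akap12, Akap14 and Akap17b) and 6 CREB-family factors (Creb1, Creb3, Creb3l1, Creb3l3, Creb3l4 and Crem). The 48 promoters without a call had log2 differences from −0.63 to 1.07. Pde5a, the cGMP enzyme that sildenafil inhibits, averaged 21.3 ± 4.16 in CSE-KO and 15.0 ± 1.73 in WT at its promoter (SD, n = 3 each; limma adjusted p = 0.14), and Pde3b, which cGMP inhibits, 329.0 ± 44.1 in CSE-KO and 280.0 ± 45.3 in WT (limma adjusted p = 0.432). Per kb of region, the mean value of the Crem promoter was 455.0 in CSE-KO and 415.0 in WT, near the top of the set. Pde5a, Pde3b and Crem were named after their values were seen.

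The full cAMP response element, TGACGTCA on either strand, was in 3 of 78 RefSeq start windows of the 46 matched genes (3.85%), at Creb5 and at overlapping windows of Prkar1a, against 1.79% of 32851 windows of all genes. The shorter core, TGACG or CGTCA, which the full element contains on both strands, was in 23 of the 78 windows (29.5%), against 20.8% of all windows. A match is a run of letters, not a measured binding site. The windows are from RefSeq on GRCm38.p6, run from 250 bases before to 50 after a start, and are shown because both overlap a measured region, with the element in capitals. The Creb5 window is chr6:53287053-53287352 and the Prkar1a window chr11:109650699-109650998, both on the plus strand.
Creb5: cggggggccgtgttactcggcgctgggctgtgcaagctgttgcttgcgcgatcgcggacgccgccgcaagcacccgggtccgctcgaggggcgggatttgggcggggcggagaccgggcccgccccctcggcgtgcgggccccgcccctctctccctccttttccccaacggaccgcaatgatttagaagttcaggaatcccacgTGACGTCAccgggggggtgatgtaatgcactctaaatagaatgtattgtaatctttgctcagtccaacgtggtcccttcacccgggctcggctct
Prkar1a: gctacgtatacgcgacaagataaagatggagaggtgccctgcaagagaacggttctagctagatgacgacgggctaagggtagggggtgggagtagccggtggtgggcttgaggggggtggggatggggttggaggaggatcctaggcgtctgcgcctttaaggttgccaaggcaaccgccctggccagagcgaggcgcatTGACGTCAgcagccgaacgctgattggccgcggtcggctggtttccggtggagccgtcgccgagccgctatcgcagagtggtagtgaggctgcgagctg
The element begins at base 206 of the Creb5 window and base 202 of the Prkar1a window. The Creb5 window lies in the promoter region that was higher in CSE-KO. The Prkar1a window overlaps a region 1.72 kb from the assigned start, which held 178, 158 and 197 in CSE-KO, against 168, 237 and 222 in WT (adjusted p = 0.462) and overlapped between groups.

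**Figure D3:**
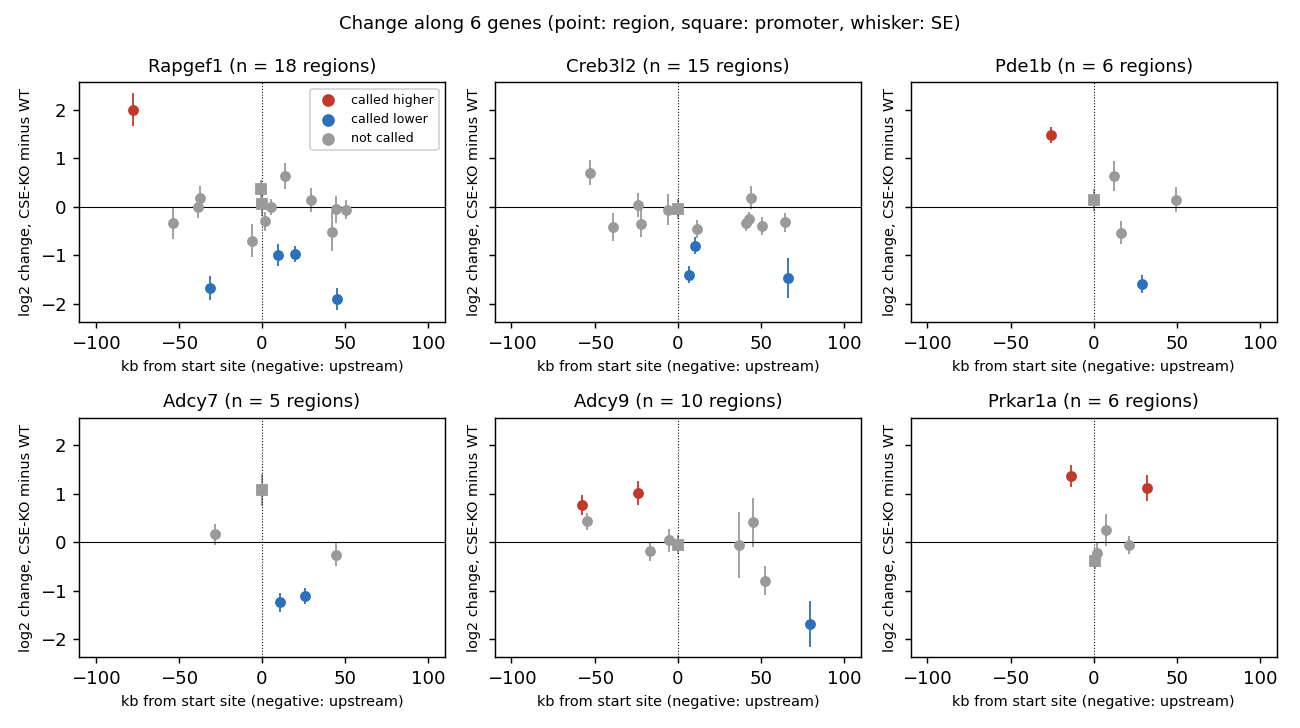
Log2 difference, CSE-KO minus WT, of each region of 6 genes against its distance from the assigned start site in kb, with upstream to the left of 0. Squares are promoters, circles are distal regions, whiskers are 1 SE, and red and blue points were called higher and lower by limma. The promoter regions of these genes are grey, and the called regions lie away from the start, from 6.59 kb at Creb3l2 to 79.6 kb at Adcy9.

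By place, the 98 distal regions inside their own gene held 2 higher and 12 lower calls (2.04% and 12.2%), where such regions of all genes held 6.7% and 11.5%. The 16 distal regions inside another gene held 4 higher and 2 lower calls, where such regions of all genes held 7.43% and 10.7%. The 60 between genes held 6 higher and 5 lower, where such regions of all genes held 8.07% and 11.8%. By side, the 69 upstream distal regions were called higher in 13% and lower in 8.7%, against 8.18% and 11.2% of such regions of all genes. The 105 downstream distal regions were called higher in 2.86% and lower in 12.4%, against 6.83% and 11.7%. These shares are descriptions, since regions of a gene are not independent.

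With the values of a gene's regions summed, 5 of the 53 genes were higher and 5 lower in CSE-KO in limma adjusted over all 12574 genes, where 21.6% of all genes were called, 12.6% higher and 8.98% lower. The median log2 difference was 0.05 over the 53 genes and 0.06 over all genes. Creb5 summed to 575, 577 and 538 in CSE-KO, against 339, 347 and 349 in WT (0.71 ± 0.08; adjusted p = 0.00415). Adcy6 summed to 239, 240 and 238 in CSE-KO, against 164, 153 and 148 in WT (0.62 ± 0.09; adjusted p = 0.00564). Adcy7 summed to 380, 372 and 390 in CSE-KO, against 609, 576 and 561 in WT (−0.61 ± 0.08; adjusted p = 0.00574). In these 3 genes the spread within a group was small next to the gap between groups, and no library left out ended the call. With the deposited gene assignment alone, only the promoter of Adcy7 remained and its log2 difference was 1.07 (adjusted p = 0.0624).

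The other higher sums were those of Rapgef6 (0.48; adjusted p = 0.0207), of Akap8l, a nuclear anchoring protein (0.43; adjusted p = 0.0131), and of Adcy4, an isoform known in endothelium (0.40; adjusted p = 0.0245). The 2 regions of Akap8l include a region over the start of Wiz, and the Adcy4 promoter region overlaps the start of Gm32092. The other lower sums were those of Pde6d (−0.54; adjusted p = 0.0146), Gucy2g (−0.48; adjusted p = 0.0157), Prkaca, the main catalytic subunit of protein kinase A (−0.46; adjusted p = 0.037), and Creb3l2 (−0.38; adjusted p = 0.0252). Pde6d and Prkaca have 1 region each, a promoter, which by itself had an adjusted p of 0.0601 and 0.111 among regions, and the Pde6d promoter is shared with Cops7b. Pde6d held 291, 265 and 258 in CSE-KO, against 439, 377 and 372 in WT, and Prkaca held 206, 190 and 182 in CSE-KO, against 265, 231 and 305 in WT. Neither gene's groups overlapped. Each of these 7 calls was lost without at least 1 WT library. Without WT replicate 1 the adjusted p was 0.056 for Rapgef6, 0.0558 for Akap8l, 0.0896 for Adcy4, 0.0544 for Pde6d, 0.0594 for Gucy2g, 0.105 for Prkaca and 0.0925 for Creb3l2. Without WT replicate 2 it was 0.0602 for Rapgef6, 0.0501 for Akap8l, 0.0729 for Adcy4, 0.0602 for Gucy2g and 0.0909 for Creb3l2. Without WT replicate 3 it was 0.0756 for Rapgef6, 0.0606 for Adcy4, 0.0538 for Gucy2g, 0.109 for Prkaca and 0.0537 for Creb3l2. Without CSE-KO replicate 2 it was 0.0762 for Prkaca and 0.0545 for Creb3l2, and without CSE-KO replicate 3 it was 0.085 for Prkaca, 0.0519 for Creb3l2 and 0.0572 for Adcy4.

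**Figure D4:**
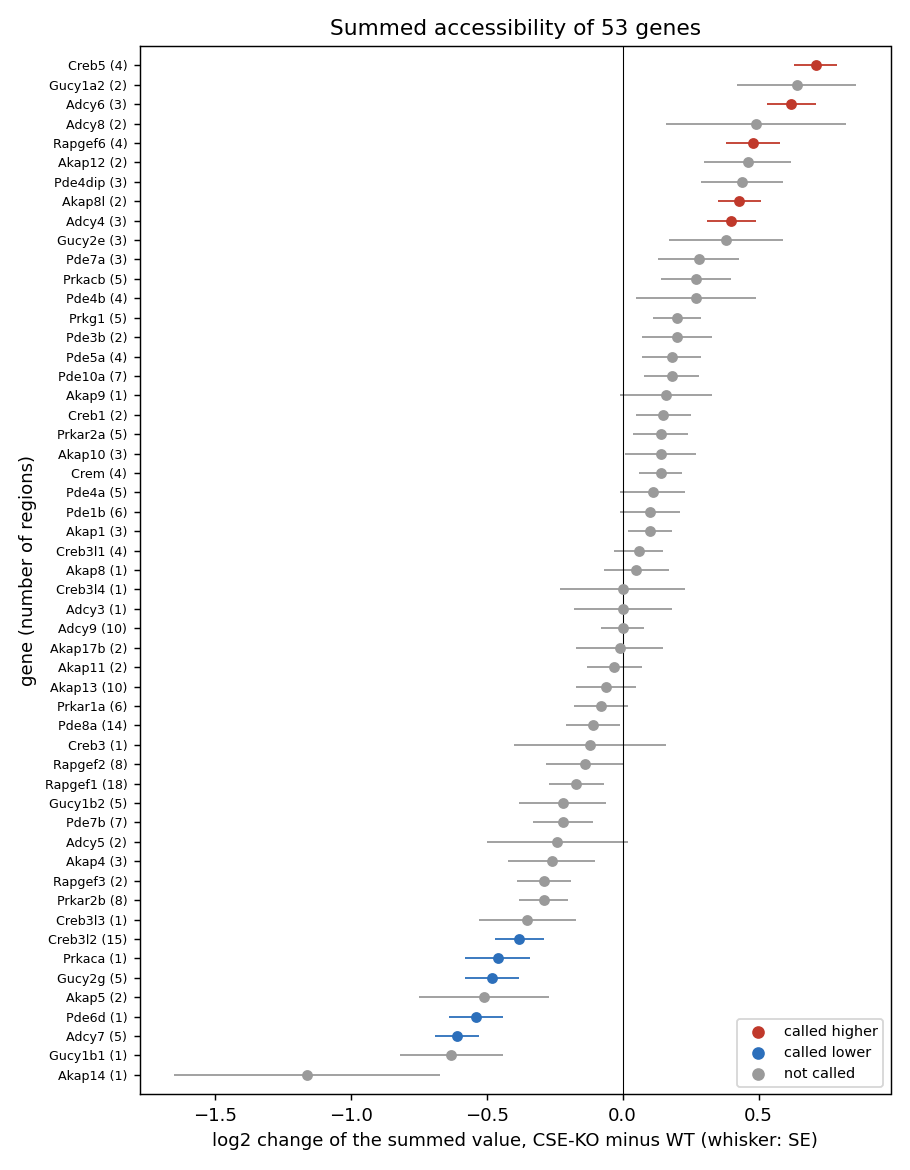
Log2 difference, CSE-KO minus WT, of the summed region values of the 53 genes, with the number of regions in brackets and whiskers of 1 SE. Red genes were called higher and blue genes lower by limma. Creb5 is the highest called gene at 0.71 and Adcy7 the lowest called at −0.61, while Gucy1b1 and Akap14, with 1 region each, lie lower and were not called.

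For 37 of the 53 genes a promoter and a distal sum could be set against each other. Of these, 1 had a higher promoter-to-distal ratio in CSE-KO and 0 a lower one, where 14.8% of 7507 genes were called, 10.5% higher and 4.26% lower. At an unadjusted p under 0.05, 5 of the 37 were higher and 2 lower. The median log2 difference in the ratio was 0.19 over the 37 genes and 0.15 over all. The called gene was Adcy7, whose distal sums were 336, 312 and 301 in CSE-KO, against 588, 535 and 533 in WT, beside the promoter values above. Its promoter region, set by the deposited start site, overlaps no RefSeq start window. These distal sums include the region over an annotated alternative start of Adcy7. Without it they were 267, 237 and 199 in CSE-KO, against 385, 339 and 353 in WT, still without overlap, and the ratio was not tested that way. With all distal regions the log2 ratio of Adcy7 was −2.90, −2.36 and −1.75 in CSE-KO, against −4.74, −3.67 and −4.20 in WT, without overlap (1.87 ± 0.36; adjusted p = 0.0187). The adjusted p was 0.0665 without WT replicate 1 and 0.0626 without WT replicate 3.

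Other genes of the pathway were read from lists of receptors, transducers and targets. Of 18 receptors listed with stimulatory G proteins 13 had regions, 67 in all, with 3 higher and 10 lower calls (19.4% called, near the 17.3% of all regions). S1pr1, which is known to couple to an inhibitory G protein, gave 3 of the lower calls. Adrb3, the beta-3 adrenergic receptor, held 20, 28 and 16 in CSE-KO, against 69, 70 and 63 in WT at a region 3.23 kb from its start (−1.65; adjusted p = 0.00654). Calcrl, the receptor for adrenomedullin, held 90, 64 and 84 in CSE-KO, against 32, 27 and 34 in WT at 15.2 kb (1.32; adjusted p = 0.00811). The groups did not overlap in either. Of 10 G protein subunit genes, all with regions, 46 regions held 4 higher and 9 lower calls (28.3% called, against 17.3% of all regions). Gnal, a stimulatory alpha subunit, held 114, 103 and 85 in CSE-KO, against 32, 20 and 23 in WT at 83.1 kb (1.98; adjusted p = 0.00431). Gng2, a gamma subunit, held 7, 6 and 8 in CSE-KO, against 19, 19 and 21 in WT at 42.7 kb (−1.38; adjusted p = 0.00501). Both pairs of groups were apart, in opposite directions.

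Upstream of cGMP, 12 of 14 nitric oxide and natriuretic peptide genes had 45 regions, with 8 higher and 4 lower calls (26.7% called, against 17.3% of all regions). Npr3, the clearance receptor for natriuretic peptides, held 54, 57 and 57 in CSE-KO, against 20, 25 and 19 in WT at 2.92 kb (1.36; adjusted p = 0.00534). Ddah1, which degrades an inhibitor of nitric oxide synthase, held 41, 52 and 41 in CSE-KO, against 117, 112 and 124 in WT at 40.3 kb (−1.39; adjusted p = 0.00511). Neither pair overlapped. The promoters of Nppa and Nppb, which encode the atrial and B-type natriuretic peptides, were higher by log2 differences of 2.02 and 1.31, and were named after their values were seen.

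Downstream, 14 of 22 other effector genes had 54 regions with 3 higher and 3 lower calls (11.1% called, against 17.3% of all regions). The promoter of Popdc2, a cAMP-binding membrane protein, held 54, 35 and 49 in CSE-KO, against 102, 115 and 110 in WT (−1.25; adjusted p = 0.0104). Itpr1, a calcium channel that protein kinases A and G phosphorylate, held 34, 49 and 43 in CSE-KO, against 21, 18 and 22 in WT at 23.5 kb (1.00; adjusted p = 0.017). The groups were apart in both, but the Itpr1 call ended without WT replicate 1, 2 or 3 (0.0616, 0.0706 and 0.0566). Replicate number as a covariate ended the Itpr1 call too (0.0502). Of 11 CREB coactivators and regulators 10 had 39 regions, with 3 higher and 2 lower calls (12.8% called). Atf1, a factor that pairs with CREB, held 26, 25 and 41 in CSE-KO, against 6, 6 and 4 in WT at 18.3 kb (2.30; adjusted p = 0.00394). Crebrf, a regulator of CREB3, held 54, 60 and 39 in CSE-KO, against 26, 20 and 17 in WT at 11.6 kb (1.24; adjusted p = 0.0162). Of 16 CREB target genes 12 had 53 regions, with 3 higher and 2 lower calls (9.43% called). Cited2, which competes for the coactivators CBP and p300, held 59, 38 and 48 in CSE-KO, against 15, 24 and 18 in WT at 9.97 kb (1.31; adjusted p = 0.0148). Rgs2, which limits G protein signals, held 15, 23 and 28 in CSE-KO, against 53, 77 and 46 in WT at 87.4 kb (−1.38; adjusted p = 0.0211). In these 4 regions no CSE-KO value lay within the WT range. The Crebrf call ended without WT replicate 2 or 3 (0.0642 and 0.0651), the Cited2 call without WT replicate 1 or 3 (0.0597 and 0.0609), and the Rgs2 call without WT replicate 1, 2 or 3 (0.0667, 0.0723 and 0.0501).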

How the data were processed

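Chromatin accessibility was measured by paired-end ATAC-seq, 6 libraries in all. The submitters' processing notes name the build mm10 and the tools STAR 2.7.3a, DESeq2 1.26.0, Trimmomatic 0.39 and Picard 3.1.1, with no role. Which program called the peaks, and whether read ends were moved for Tn5, is not given in the sources used here. All deposited values are whole numbers treated as a score, because gaps between the low values of the CSE-KO columns and nearly equal totals mark them as read counts that the authors scaled and rounded. No model for raw counts was therefore run.

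Each region took the first gene symbol of the deposited table or, where the table gave no gene identifier, the nearest protein-coding start site within 100 kb. Of 21839 regions with an identifier 15754 had a symbol, and the others were given no gene. RefSeq on GRCm38.p6 supplied gene spans and start windows. limma 3.58.1 in R 4.3.3 (eBayes, trend and robust off) was fitted to log2(value + 1) of all regions with a mean of at least 5, to the summed values of every gene, and to each gene's promoter-to-distal log2 ratio. Groups and replicate numbers came from the sample titles. P-values were adjusted by Benjamini-Hochberg over each whole table at 0.05, two-sided, and effects are CSE-KO minus WT with the SE of the fit. The steps were tested on simulated data. The members and the gene lists were chosen with earlier results of these data known, and no p-value was adjusted over a list alone.

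Regions were named with full values by rules, which took every called promoter and the genes with the most regions. For each role, up to 4 called distal regions were taken by p, 1 per gene, with the gene's nearest promoter. Only distal regions whose groups do not overlap were eligible there, so that lack of overlap followed from the choice. Every called sum and ratio, and up to 2 called regions of each list, were also named. Alternatives changed the pseudocount, filter, variance model, scaling, gene assignment, promoter width and libraries used. Same-numbered libraries did not deviate together (correlations −0.00593, −0.0105 and 0.0105). The labels do not say whether the numbers pair libraries across groups. These correlations cannot settle it, because counting noise in each region also lowers them.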

Additional observations from a re-analysis of the deposited data

How the results depend on the processing

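Of the 33 called regions 14 kept their call in every alternative that could be run on them, and 19 lost it without at least 1 WT library. Replicate number as a covariate ended 11 of the 33 calls, and trend and robust on ended 3. Library quality weights, a pseudocount of 0.5 and no filter on low values each ended 2. Among the 10 called gene sums, replicate number as a covariate ended 3 and library quality weights 1. The count of higher regions, 14 as reported, was 23 with eBayes trend and robust on, 8 with the replicate block, 9 with start sites taken within 50 kb, 2 with the deposited assignment alone and 4 with regions inside the gene's RefSeq span or promoter, an alternative chosen after seeing the data. Leaving out a library gave 5 to 14. The count of lower regions, 19 as reported, was 1 with the deposited assignment alone, 12 inside the RefSeq span or promoter and 11 to 21 with a library left out. For gene sums, 5 higher became 2 and 5 lower became 2 with the deposited assignment alone, and the lower count was 3 with the replicate block. Leaving out a library gave 2 to 7 higher and 1 to 7 lower sums. The Adcy7 sum turned to 1.07 with the deposited assignment alone, which leaves only its promoter. The Creb3l2 sum fell short under quantile normalization (−0.19; limma adjusted p = 0.163).

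The promoter-to-distal ratio called 1 gene higher, 2 at a pseudocount of 5, 2 with the replicate block, 0 with the deposited assignment alone and 0 to 2 with a library left out. The count of lower ratios, 0 as reported, was 1 at a pseudocount of 5, 1 with a minimum mean of 20, 1 with trend and robust on and 2 with quantile normalization. Causes of these shifts were not tested, except that narrower assignments hold fewer regions. The replicate block, with numbers that the labels do not say pair libraries, reduced the calls over all regions to 6013. Leaving out WT replicate 1, 2 or 3 reduced them to 3602, 3684 and 3519. The CSE-KO libraries rest on fewer reads, and the effect of depth on these calls was not tested.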
